A study of Homo sapiens with 6 samples.

Results

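The miR-130, miR-301 and miR-454 family was followed through small RNA libraries of human melanoma cells, as the 7 listed mature miRNAs that carry its names, namely hsa-miR-130a-3p, hsa-miR-130b-3p, hsa-miR-130b-5p, hsa-miR-301a-3p, hsa-miR-301b-3p, hsa-miR-454-3p and hsa-miR-454-5p (the prefix for human is left out from here on). They were chosen by name and all 7 were found among the 1596 mature miRNAs in the deposited table of raw read counts. Cells had been kept for 24 hours with RSL3 combined with IFN-γ (3 libraries) or with RSL3 alone (3 libraries). RSL3 triggers ferroptosis, an iron-dependent death by lipid peroxidation, by inactivating the glutathione peroxidase GPX4, and IFN-γ is the cytokine that activated T cells release onto tumor cells. RSL3 was thus present in both groups, and no library of untreated cells or of IFN-γ alone was analysed here. The sample labels name the cells as A2058, whereas the methods of the study name A375 for the sequencing. Both are established melanoma cell lines, and the difference was not resolved here. No source used here says whether the replicates were separate cultures, so the p-values speak only for the variation among these 6 libraries, part or all of which could be technical. The libraries are of bulk RNA, in which fewer cells that make a miRNA and less of it per cell cannot be told apart.

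A miRNA hairpin is cut into a 5p and a 3p arm, and the arm that is loaded into an Argonaute protein pairs with messenger RNAs mainly through its seed, bases 2 to 8 from the 5′ end. MiRNAs that share a seed can repress overlapping sets of messengers. The 3p arms of this family are known as regulators of the TGF-β and BMP pathways. They are often abundant in tumors, and miR-301a has also been described as an activator of NF-κB through repression of its inhibitor NKRF.

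The sequences are shown because the results turn on members that share 1 seed but come from different loci. RefSeq (GRCh38.p14) gave mature sequences for 6 of the 7 members, miR-130a-3p being the other. Each is written 5′ to 3′ with the seed in capitals.
miR-454-3p: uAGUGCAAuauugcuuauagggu
miR-301a-3p: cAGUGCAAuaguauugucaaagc
miR-301b-3p: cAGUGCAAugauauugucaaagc
miR-130b-3p: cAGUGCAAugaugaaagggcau
miR-130b-5p: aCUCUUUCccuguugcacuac
miR-454-5p: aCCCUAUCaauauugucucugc

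The first 4, all 3p arms, have the same 7 seed bases, and each 5p arm has a seed of its own. MiR-301a-3p and miR-301b-3p are both 23 bases long and differ by A10G and G11A, counted from 1 at the 5′ end with the base of miR-301a-3p first. MiR-130b-3p and miR-301b-3p share their first 12 bases. Among human miRNAs with a mature sequence in RefSeq, 6 have this seed. MiR-130a-3p had no sequence there and so is not in that count. Besides the 4 shown, these are miR-3666 and miR-4295, which have no row in the deposited table. No member had the same 6 counts as another row of the table, although the sources used here do not say how reads that match several miRNAs were assigned. This bears most on miR-301a-3p and miR-301b-3p.

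The hairpins come from 3 loci in GENCODE 29 on GRCh38. On chromosome 17, MIR454 (59137758 to 59137872) and MIR301A (59151136 to 59151221), both on the minus strand, lie in introns of SKA2 on the same strand, 13263 bases apart. SKA2 encodes a subunit of the complex that holds kinetochores to spindle microtubules. On chromosome 22, MIR301B (21652981 to 21653058) and MIR130B (21653304 to 21653385), on the plus strand, are 245 bases apart. Both lie inside the non-coding gene AP000553.1 on the same strand, MIR301B in an intron and MIR130B overlapping an exon. On chromosome 11, MIR130A (57641198 to 57641286, plus strand) lies in an intron of the non-coding gene AP000662.1 on the same strand.

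Reads assigned to mature miRNAs numbered 4383940, 4404760 and 5367150 in the combined treatment (RSL3 with IFN-γ) libraries, against 5887471, 4897890 and 6513382 in the RSL3 monotreatment libraries. The members held between 28 and 1530 reads each in any 1 library. Levels are given as CPM, the counts scaled to a common library size. Library sizes were corrected by TMM factors, which ran from 0.944 to 1.33 in the combined treatment and from 0.861 to 0.913 in the monotreatment. MiR-211-5p, a miRNA of the melanocyte lineage, was present in each library, at 286 to 388 CPM in the combined treatment and 270 to 318 CPM in the monotreatment. The other melanocyte marker, miR-204-5p, was at 174, 161 and 173 CPM in the combined treatment, against 238, 276 and 344 CPM in the monotreatment, without overlap (log2 fold change −0.75, adjusted p = 0.0750 by edgeR). Such a separation was shown by 29.8% of all tested miRNAs, counting either direction. The 3 listed melanoma miRNAs summed to 14.5 to 30.5 CPM in the combined treatment and 51.2 to 80.1 CPM in the monotreatment. Of these miR-514a-3p fell (log2 fold change −1.38, adjusted p = 0.0374 by edgeR), and miR-508-3p had 0 reads in all 3 combined treatment libraries, against 8, 2 and 7 reads in the monotreatment. The groups overlapped for miR-509-3p, with 0, 4 and 1 reads in the combined treatment against 11, 3 and 17 reads in the monotreatment. Markers of other cell types were present too. The 2 muscle miRNAs together had 197 to 271 CPM in the combined treatment and 170 to 1326 CPM in the monotreatment, with RSL3 replicate 3 the highest, and the 3 fibroblast miRNAs had 314 to 539 CPM in the combined treatment and 366 to 1237 CPM in the monotreatment. Lists for blood, epithelium and liver summed to between 29.1 and 327 CPM, and no listed marker was at 0 in all libraries. The part of these markers in the results was not tested.

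The comparison asks how the addition of IFN-γ to RSL3 was reflected in the family. The 3p arms from chromosome 17, miR-454-3p and miR-301a-3p, had lower means in the combined treatment, with fold changes of 0.433 and 0.460 by edgeR. Means of miR-130b-3p (chromosome 22) and miR-130a-3p (chromosome 11) were higher, with fold changes of 1.41 and 1.30 by edgeR. MiR-301b-3p and the 5p arms differed less. The two-sided quasi-likelihood test of edgeR was run on the counts, with Benjamini-Hochberg adjustment over the 758 miRNAs that passed a filter on low counts, all 7 members among them. None of the 7 passed at an adjusted p under 0.05, a level that 4.75% of all tested miRNAs passed. At an unadjusted p under 0.05 there were 3 members (miR-454-3p, miR-301a-3p and miR-130b-3p), against 25.9% of all tested miRNAs. DESeq2 called 1 member, miR-454-3p, in the lower direction (12.5% of all tested miRNAs in either direction and 5.67% in the lower), and limma called 0 (4.22% of all tested miRNAs). The median log2 fold change of the members was 0.027, beside −0.04 over all tested miRNAs.

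**Figure D1:**
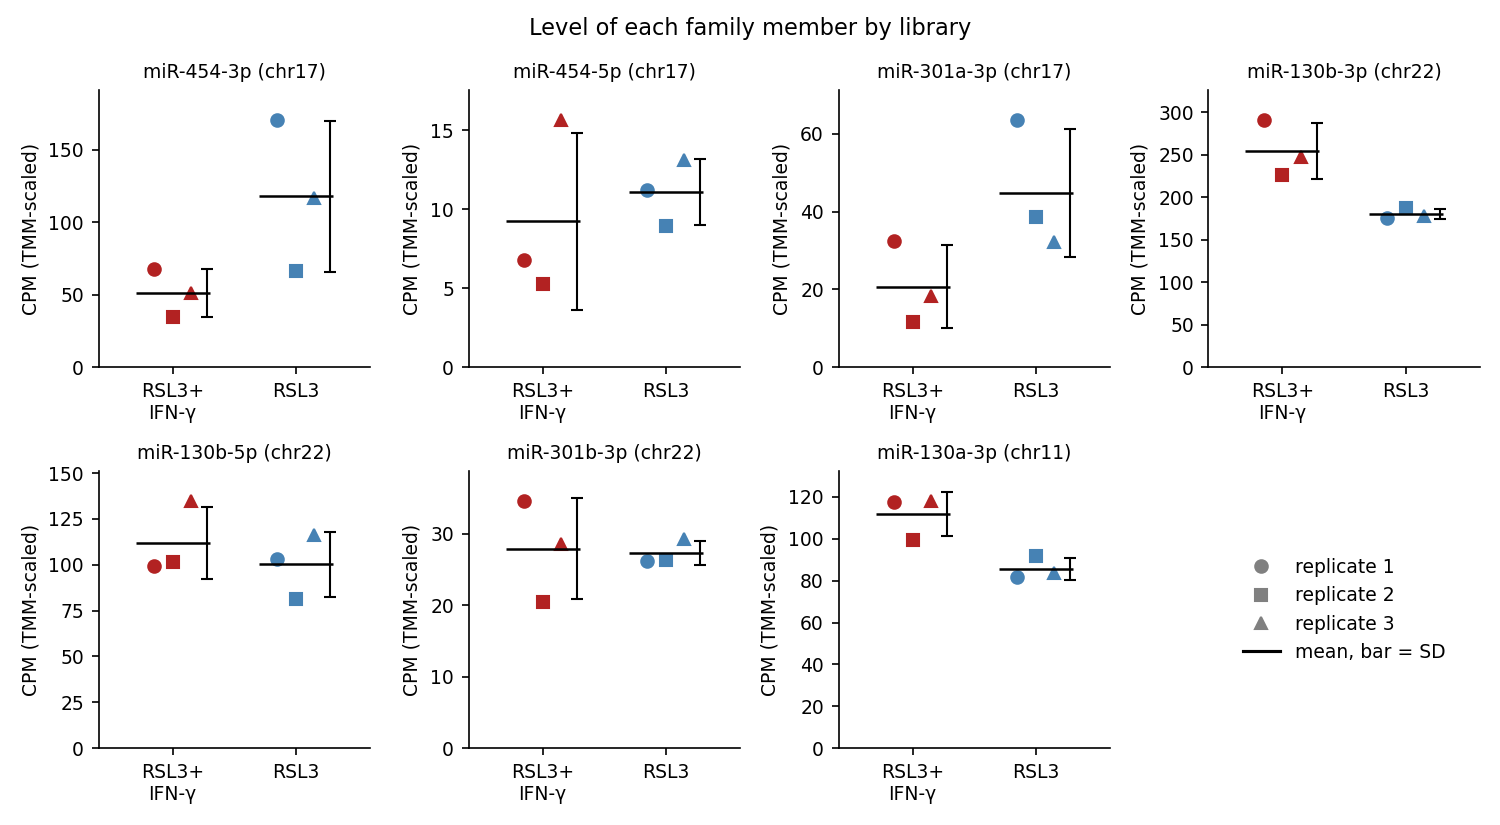
Level of each member in CPM (TMM-scaled, axis from 0), with the RSL3 combined with IFN-γ libraries left of the RSL3 libraries. Symbols give the replicate number, horizontal lines the mean of 3 libraries and bars the SD. The groups are apart for miR-130b-3p and miR-130a-3p and touch or overlap in the other 5 members.

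MiR-454-3p had the fold change farthest from 1 among the 7 in edgeR's fit. It was at 67.4, 34.7 and 51.3 CPM in the combined treatment libraries, against 170, 66.2 and 117 CPM in the monotreatment libraries. The groups overlapped only through the highest combined treatment library (replicate 1) and the lowest monotreatment library (replicate 2). Its log2 fold change was −1.21 (standard error 0.364, 95% interval −2.01 to −0.40), with an adjusted p = 0.0750 by edgeR. DESeq2 called it lower, with a log2 fold change of −1.18 and an adjusted p = 0.0261. It was called lower too when edgeR's model held the replicate number as a block (log2 fold change −1.15, adjusted p = 0.0197), and without replicate 1 of the combined treatment (−1.47, adjusted p = 0.0314) or without RSL3 replicate 2 (−1.51, adjusted p = 0.0342 by edgeR). Without RSL3 replicate 1, its highest library, the log2 fold change was −0.84 (adjusted p = 0.317 by edgeR). Over its 15 alternatives the adjusted p ran from 0.00230 to 0.317. The same-numbered libraries stood in the same order in every pair, the combined treatment below the monotreatment. What the numbers stand for is not known, and the share of all tested miRNAs with such an order was not counted.

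MiR-301a-3p, whose hairpin lies in the same host gene, SKA2, was at 32.4, 11.6 and 18.2 CPM in the combined treatment, against 63.5, 38.7 and 32.2 CPM in the monotreatment. The groups met between replicate 1 of the combined treatment and RSL3 replicate 3, which differed by less than 1 CPM. Its log2 fold change was −1.12 (standard error 0.398, 95% interval −2.002 to −0.24), with an adjusted p = 0.121 by edgeR. With the replicate block it was called lower (−1.16, adjusted p = 0.0383 by edgeR), as it was without replicate 1 of the combined treatment (−1.60, adjusted p = 0.0195 by edgeR). Without RSL3 replicate 1 it was −0.78 (adjusted p = 0.402 by edgeR), and over its 15 alternatives the adjusted p ran from 0.0140 to 0.402. With the block edgeR thus called 2 of the 7 members, beside 10.8% of all tested miRNAs, both in the lower direction, in which it called 5.67% of them.

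The 5p arm of miR-454 is the less abundant one and was the rarest member. It was at 6.76, 5.29 and 15.6 CPM in the combined treatment, against 11.2, 8.94 and 13.1 CPM in the monotreatment, so that replicate 3 of the combined treatment was the highest of the 6 libraries. Between groups the log2 fold change was −0.26 (95% interval −1.19 to 0.68, adjusted p = 0.731 by edgeR). The 5p arm of miR-301a, not counted among the members, was at 15.7, 15.4 and 26.6 CPM in the combined treatment and at 41.8, 16.5 and 42.0 CPM in the monotreatment (log2 fold change −0.80, adjusted p = 0.224 by edgeR). All 4 products of the SKA2 locus thus had a log2 fold change below 0, although that of miR-454-5p was 0.11 with library totals only, 0.20 with the totals behind the normalized columns and 0.039 with the GC trend removed.

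MiR-130b-3p, which represses the stress protein TP53INP1 in liver tumor cells, was the most abundant member in every library, at rank 153 of the 1596 miRNAs by mean CPM. It was at 291, 226 and 247 CPM in the combined treatment, against 176, 187 and 178 CPM in the monotreatment. Each combined treatment library was above each monotreatment library, a separation that 29.8% of all tested miRNAs showed in one direction or the other. The log2 fold change of miR-130b-3p was 0.50 (standard error 0.214, 95% interval 0.023 to 0.97), with an adjusted p = 0.175 by edgeR. It passed that test under 1 of the alternatives, with libraries scaled by the totals behind the normalized columns of the deposited table (0.93, adjusted p = 0.0452), the adjusted p over its 15 alternatives running up to 0.438.

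MiR-130a-3p, known in endothelial cells for repressing the homeobox genes GAX and HOXA5, was likewise apart between groups, at 118, 99.6 and 118 CPM in the combined treatment against 81.7, 91.7 and 83.6 CPM in the monotreatment. These 2 were the only members whose groups did not overlap, both higher in the combined treatment, as were 15% of all tested miRNAs. For miR-130a-3p the log2 fold change was 0.38 (95% interval −0.093 to 0.86, adjusted p = 0.280 by edgeR). The other arm of its hairpin, miR-130a-5p, was at 44.5, 26.3 and 12.3 CPM in the combined treatment and at 25.1, 37.1 and 26.6 CPM in the monotreatment, with the widest spread in the combined treatment.

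MiR-301b-3p lies on the chromosome 22 locus next to miR-130b and was at 34.5, 20.5 and 28.6 CPM in the combined treatment, against 26.2, 26.4 and 29.2 CPM in the monotreatment. The means, 27.9 ± 7.05 CPM in the combined treatment and 27.3 ± 1.68 CPM in the monotreatment (SD, n = 3 each), differed by less than the spread in either group. Its log2 fold change was 0.027, with a 95% interval of −0.58 to 0.63. MiR-130b-5p, the other arm of the miR-130b hairpin, was at 99.5, 101 and 135 CPM in the combined treatment, against 103, 81.1 and 117 CPM in the monotreatment. It had a log2 fold change of 0.16 (95% interval −0.38 to 0.70).

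**Figure D2:**
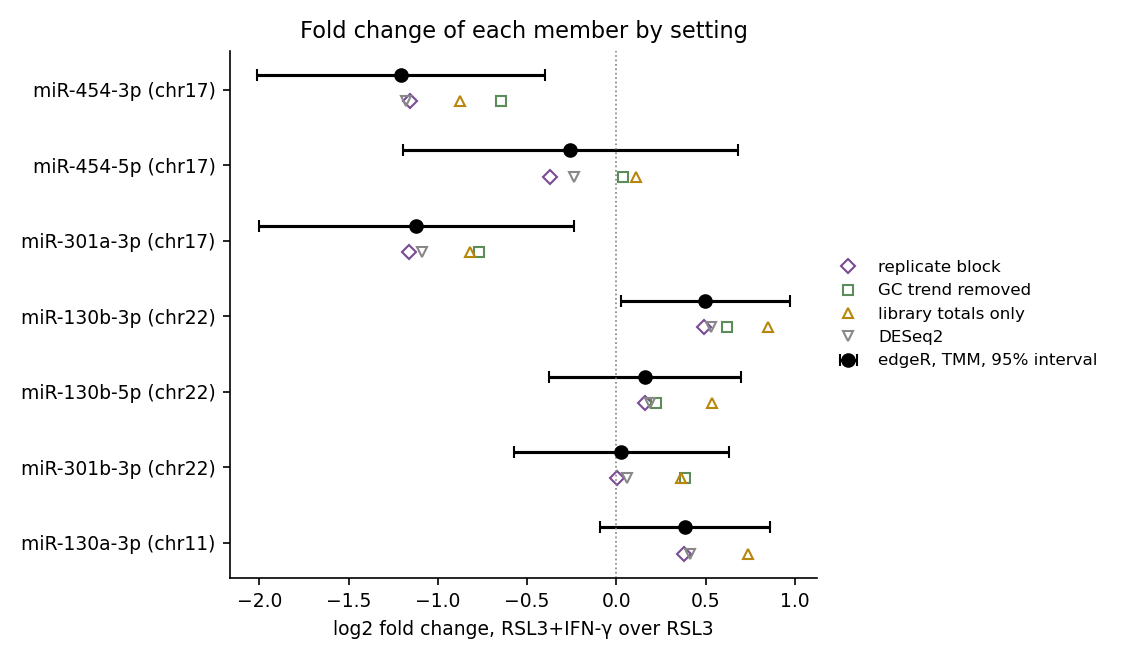
Log2 fold change of each member, RSL3 combined with IFN-γ over RSL3. Black points and bars are edgeR's estimate with TMM factors and its 95% interval, and open symbols are the estimates with the replicate block, with the GC trend removed, with library totals only and by DESeq2. MiR-454-3p (−1.21) and miR-301a-3p (−1.12) lie below 0 in each setting drawn, and miR-130b-3p (0.50) and miR-130a-3p (0.38, no GC value) above 0.

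The order of the mean levels within the family differed between the groups, in part among neighbors with overlapping ranges. In the combined treatment the means ran from miR-130b-3p (254 ± 33.0 CPM) through miR-130b-5p (112 ± 19.8 CPM), miR-130a-3p (112 ± 10.5 CPM), miR-454-3p (51.1 ± 16.4 CPM), miR-301b-3p (27.9 ± 7.05 CPM) and miR-301a-3p (20.7 ± 10.6 CPM) to miR-454-5p (9.24 ± 5.60 CPM; SD, n = 3 each). In the monotreatment miR-130b-3p (180 ± 6.30 CPM) was followed by miR-454-3p (118 ± 52.1 CPM), miR-130b-5p (100.2 ± 17.9 CPM), miR-130a-3p (85.7 ± 5.29 CPM), miR-301a-3p (44.8 ± 16.5 CPM), miR-301b-3p (27.3 ± 1.68 CPM) and miR-454-5p (11.1 ± 2.09 CPM). Neighbors from miR-454-3p to miR-130a-3p in the monotreatment had overlapping ranges, so that their order is not set by these libraries. In the combined treatment the same held for miR-130b-5p and miR-130a-3p, for miR-301b-3p and miR-301a-3p, and for miR-301a-3p and miR-454-5p. Reads of different miRNAs depend on how well each is ligated and amplified, which was not measured.

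The sum of the 5 3p members differed between the groups by less than its spread. The sums were 543, 392 and 463 CPM in the combined treatment, against 517, 410 and 439 CPM in the monotreatment. With library totals only they were 512, 522 and 534 CPM in the combined treatment, against 446, 375 and 385 CPM in the monotreatment, and the groups did not overlap. That scaling also moved the median over all tested miRNAs, to a log2 fold change of 0.33.

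The makeup of this sum does not depend on the scaling of the libraries. It was not corrected for the GC content of the members, which is given below. MiR-454-3p and miR-301a-3p from chromosome 17 made up 18.4%, 11.8% and 15.02% of the 3p reads in the combined treatment, against 45.2%, 25.6% and 33.9% in the monotreatment. The highest share in the combined treatment was below the lowest in the monotreatment, and the difference of the means was −19.8 percentage points, or −24.5 to −14.7 with each library left out in turn. The chromosome 22 pair made up 59.9%, 62.8% and 59.5% in the combined treatment, against 39.0%, 52.1% and 47.1% in the monotreatment, and miR-130a-3p made up 21.7%, 25.4% and 25.5% in the combined treatment, against 15.8%, 22.3% and 19.0% in the monotreatment. The groups were apart for the share of the chromosome 22 pair and overlapped for that of miR-130a-3p. The shares of a library add up to 100%, so a lower share of 1 locus raises the others, and these separations are not independent. Within the chromosome 22 pair, the mean share of miR-301b-3p was 5.92% in the combined treatment and 6.05% in the monotreatment. How often such shares separate among other miRNAs was not computed. For miR-454-3p alone the shares were 12.4%, 8.84% and 11.1% in the combined treatment, against 32.9%, 16.1% and 26.6% in the monotreatment. Counting error was covered by exact (Clopper-Pearson) 95% intervals, which leave out the spread between libraries. They were 7.71% to 10.1% for the lowest miR-454-3p share and 31.1% to 34.8% for its highest. The nearest shares of the groups had intervals of 11.1% to 13.9% (replicate 1 of the combined treatment) and 14.5% to 17.9% (RSL3 replicate 2), which did not overlap.

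**Figure D3:**
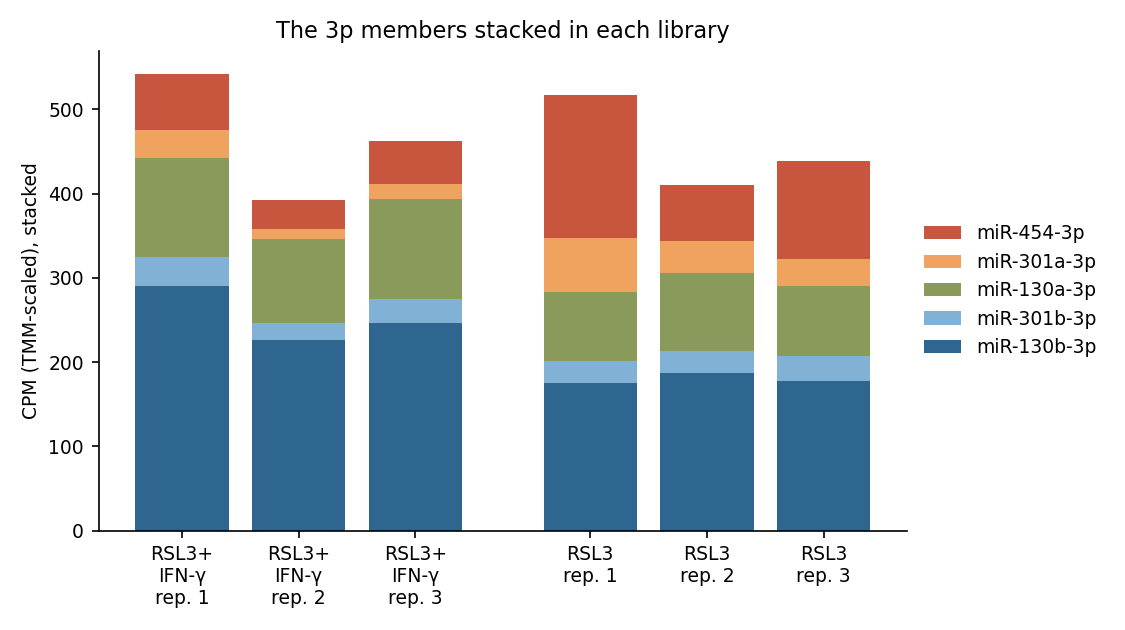
CPM (TMM-scaled) of the 3p members stacked in each library, RSL3 combined with IFN-γ on the left and RSL3 on the right. The heights lie between 392 and 543 CPM in both groups, and the upper segments, miR-454-3p and miR-301a-3p, are 11.8% to 18.4% of the height on the left and 25.6% to 45.2% on the right.

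The ratio of reads of 1 member to another within a library needs no scaling at all, and was used to ask whether members moved apart. Among the 10 pairs of 3p members, the groups did not overlap in 7, beside 29.1% of all 286903 pairs of tested miRNAs. The 10 pairs are built from the same few members and are not independent. The 7 were all 6 pairs of a chromosome 17 member with a member of another locus, and miR-130b-3p over miR-301b-3p. Each had p = 0.1 in a two-sided exact permutation test over the 6 libraries (adjusted p = 0.143 over 10 pairs), which is the smallest p that 3 libraries against 3 can give, so that no pair could pass 0.05.

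MiR-301a-3p and miR-301b-3p, which differ at A10G and G11A, exchanged their order by reads, though not clearly in each library. The log2 ratio of miR-301a-3p over miR-301b-3p was −0.093, −0.81 and −0.65 in the combined treatment, against 1.27, 0.55 and 0.14 in the monotreatment. By reads, miR-301a-3p was thus the rarer one in each library with IFN-γ and the more abundant one in each library without it, with a difference of −1.17 between the group means. Without RSL3 replicate 1 that difference was −0.86, and without RSL3 replicate 3 it was −1.43.

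MiR-454-3p over miR-130b-3p, the leading members of the chromosome 17 and 22 loci, had log2 ratios of −2.11, −2.70 and −2.26 in the combined treatment, against −0.043, −1.50 and −0.61 in the monotreatment. In RSL3 replicate 1 the miRNAs had nearly equal reads. The difference between the group means was −1.64. It was −1.15 for miR-454-3p over miR-301b-3p and −1.66 for miR-301a-3p over miR-130b-3p. Against miR-130a-3p the differences were −1.53 for miR-454-3p and −1.55 for miR-301a-3p.

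Within loci the picture was mixed. MiR-301a-3p over miR-454-3p, from the SKA2 introns, had a mean log2 ratio of −1.37 ± 0.277 in the combined treatment and −1.35 ± 0.545 in the monotreatment (SD, n = 3 each), with p = 1 in the exact permutation test. MiR-130b-3p over miR-301b-3p, whose hairpins are 245 bases apart, had log2 ratios of 3.07, 3.46 and 3.11 in the combined treatment, against 2.74, 2.82 and 2.60 in the monotreatment, a difference of 0.49. MiR-130b-3p over miR-130a-3p, from different chromosomes, was nearly level, with means of 1.18 ± 0.119 in the combined treatment and 1.07 ± 0.0380 in the monotreatment (SD, n = 3 each, exact permutation p = 0.3).

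**Figure D4:**
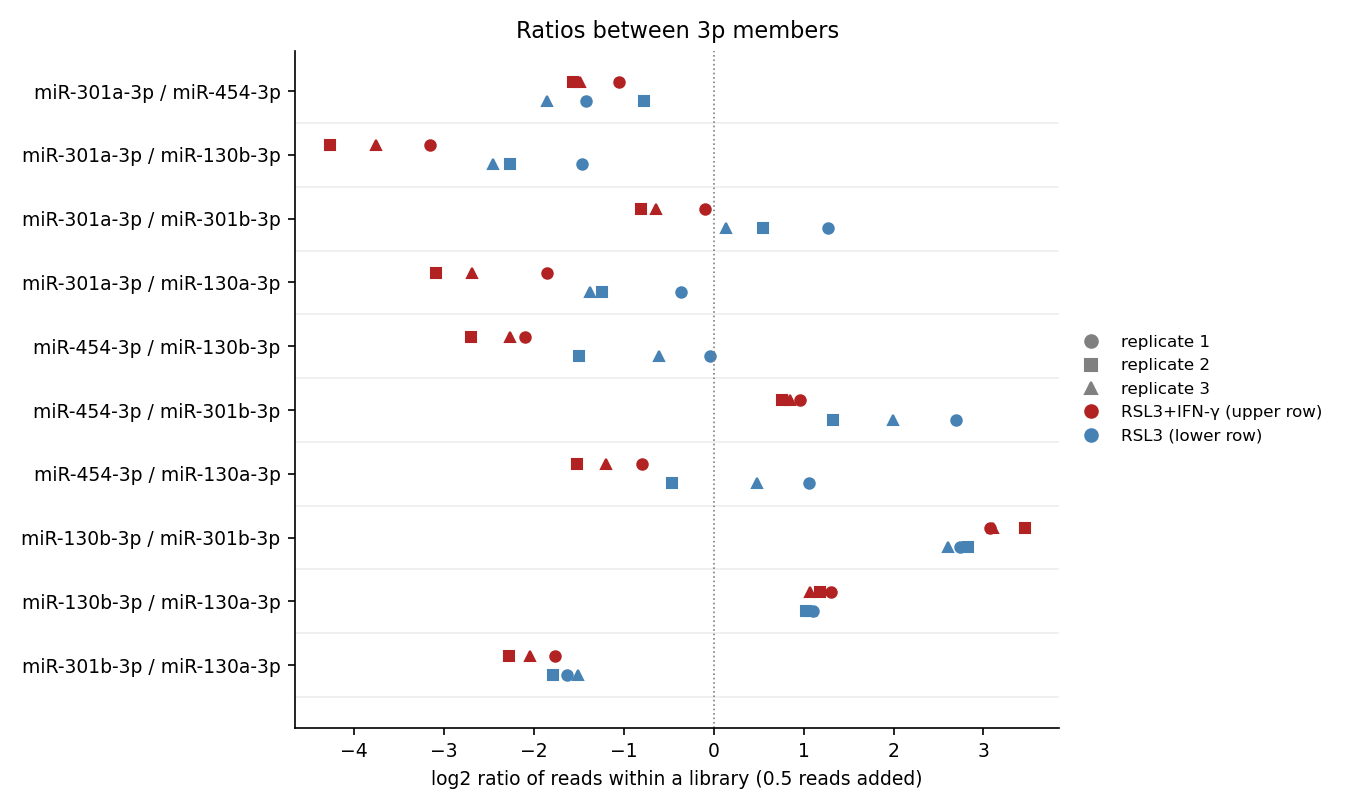
Log2 ratio between the reads of 3p members in the same library (0.5 added to each count) for the 10 pairs. In each pair the upper row is RSL3 combined with IFN-γ and the lower row RSL3, and symbols give the replicate number. The rows are apart in 7 pairs, with the combined treatment lower in all 6 that set a chromosome 17 member over one of another locus.

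The arms of a hairpin were compared in the same way, over 181 hairpins with both arms measured. Limma called 0 of them at an adjusted p under 0.05, that is 0% of all hairpins (35, or 19.3%, at an unadjusted p under 0.05, none of this family). The log2 ratio of miR-454-3p over miR-454-5p was 3.29, 2.69 and 1.71 in the combined treatment, against 3.91, 2.87 and 3.14 in the monotreatment. The difference was −0.74 (95% interval −1.87 to 0.39, limma adjusted p = 0.431). For miR-130b it was 0.33 (95% interval −0.50 to 1.16), for miR-130a 0.64 (95% interval −0.50 to 1.78) and for miR-301a −0.45 (95% interval −1.74 to 0.85). All 4 intervals hold 0 and reach a log2 difference of 1 in size. With each library left out in turn the difference ran from −1.11 to −0.32 for miR-454, lowest without replicate 1 and nearest to 0 without replicate 3 of the combined treatment, and from 0.11 to 1.04 for miR-130a, with 0.11 without replicate 3 and 1.04 without replicate 1 of the combined treatment. It ran from −0.95 (without replicate 1 of the combined treatment) to −0.079 (without RSL3 replicate 2) for miR-301a and from 0.15 to 0.50 (without these same libraries) for miR-130b. The 5p arm of miR-301b had 36 reads in all and was not tested.

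GC content moved with the fold changes of the whole table and is given beside the members for that reason. Over the 679 tested miRNAs with a mature sequence, the Spearman correlation of the log2 fold change with GC content was 0.469 and Pearson's r was 0.451, a description across miRNAs, which are not independent. MiR-454-3p has a GC content of 34.8%, miR-301a-3p and miR-301b-3p 39.1% each, and miR-130b-3p 45.5%. Among other miRNAs within 2.5 percentage points of GC, the median log2 fold change was −0.48 around miR-454-3p (57 miRNAs), −0.29 around miR-301a-3p and miR-301b-3p (74 miRNAs) and −0.10 around miR-130b-3p (117 miRNAs). Of these neighbors, 15.8% lay below miR-454-3p, 8.11% below miR-301a-3p, 78.4% below miR-301b-3p and 88.0% below miR-130b-3p. For the 5p arms, 50% of the neighbors lay below miR-454-5p (78 miRNAs) and 69.4% below miR-130b-5p (170 miRNAs).

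With the GC trend removed from each library before edgeR's test, the log2 fold change was −0.65 for miR-454-3p (adjusted p = 0.198) and −0.77 for miR-301a-3p (adjusted p = 0.222), and 0.62 for miR-130b-3p (adjusted p = 0.0999). None of the 6 members with a GC value passed, beside 3.53% of all miRNAs so tested (2 at an unadjusted p under 0.05, a level that 22.5% of these miRNAs passed). With the replicate block added, under which none of the 6 passed either (2.06% of all miRNAs, and 3 members at an unadjusted p under 0.05, beside 23.6% of all miRNAs), their values were −0.61 (adjusted p = 0.123), −0.79 (adjusted p = 0.135) and 0.62 (adjusted p = 0.123 by edgeR), so that the calls for the chromosome 17 pair with the block alone did not hold with GC removed as well. With the GC trend alone removed, the log2 fold change of miR-301b-3p was 0.38 (adjusted p = 0.402 by edgeR), beside 0.027 in the main fit. Its neighbor miR-130b-3p differs from it in GC content, and the part of GC in their ratio was not tested. Nor was the part of GC tested in the share of the chromosome 17 pair or in its ratios to members of other loci. MiR-301a-3p and miR-301b-3p have the same GC content. Whether other features of their sequences or the assignment of reads had a part in their ratio was not tested.

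**Figure D5:**
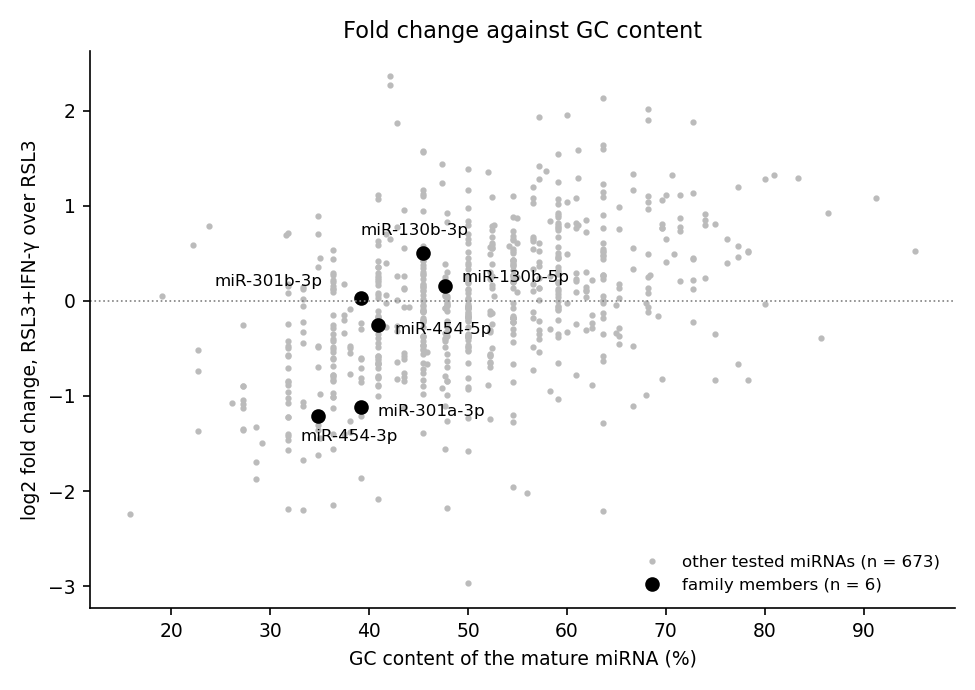
Log2 fold change of RSL3 combined with IFN-γ over RSL3 against the GC content of the mature miRNA in percent. Grey points are 673 other tested miRNAs and black points the 6 members with a mature sequence. MiR-301a-3p and miR-301b-3p stand at the same GC content of 39.1%, at −1.12 and 0.027.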

How the data were processed

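Samples were grouped by treatment from their labels. The authors deposited raw read counts per mature miRNA and a normalized signal, the counts divided by a library total. The counts of a library summed to 1.03 to 1.16 times that total. Tools and build named in the submitters' processing notes are Bowtie 1.1.1, bcl2fastq, edgeR and GRCh38. The sources used here name no miRBase release and no rule for reads with several matches. The table's 3 columns of the authors' own comparison (log2 fold change, p-value and linear fold) were not used.

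The main fit was the quasi-likelihood model of edgeR 4.0.16 under R 4.3.3, on raw counts with TMM factors, after filterByExpr had removed low rows (count setting 10, total setting 15). Alternatives used DESeq2 1.42.0, limma 3.58.1 (prior count 2), other scalings, no filter, a replicate block, a per-library loess correction on GC content (sequences for 1425 of 1596 miRNAs) and each library left out. Arm and pair ratios had 0.5 reads added, and hairpins needed a mean of 10 reads per arm. Scripts were tested on simulated data. Same-numbered libraries deviated together from their group means (correlations 0.227, 0.217 and 0.207, each over 0.1), which was taken as pairing, although no source says what the numbers stand for. These correlations depend on each other and cannot establish the pairing on which the block fits rest. Intervals on shares cover counting error only. No pair of libraries agreed within counting noise. Named miRNAs are the members, their other arms, miRNAs with the same or a shifted seed, and the 3 closest in pattern to miR-454-3p and to miR-130b-3p at a mean of at least 10 CPM. Members, lists and tests were chosen with earlier results of these data known.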

Additional observations from a re-analysis of the deposited data

How the results depend on the processing

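Of all tested miRNAs, 19 were called higher and 17 lower, against 60 and 11 with library totals only, 72 and 9 with the totals of the normalized columns, 52 and 43 by DESeq2, 50 and 56 with no filter, 39 and 43 with the replicate block, 8 lower with the GC trend removed, and 9 and 5 with the GC trend removed and the block. Leaving out single libraries gave 0 to 45 higher and 0 to 50 lower. Without RSL3 replicate 1 edgeR called 0 miRNAs (124 at an unadjusted p under 0.05) and no member (1 at an unadjusted p under 0.05). The count of members called, 0 in each direction, became 1 higher with the totals of the normalized columns (72 of 759 miRNAs). It became 1 lower by DESeq2 (43 of 758 miRNAs), 2 with no filter (56 of 1596) and 2 with the block (43 of 758). It was 0 to 2 lower and 0 to 0 higher with single libraries left out, beside 0 to 50 and 0 to 45 of 782 to 816 tested miRNAs. Arm ratios passed in 5 hairpins with 5 reads added and in 4 at a minimum mean of 50 reads (0 to 0 with single libraries left out), none of them of this family. The block changed the call of no member other than miR-454-3p and miR-301a-3p and of no arm ratio, and for the pair ratios it allows no p below 0.25.

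The signs of miR-454-3p (−1.51 to −0.61), miR-301a-3p (−1.60 to −0.73), miR-130b-3p (0.38 to 0.93) and miR-130a-3p (0.28 to 0.83) held in every alternative that gave a value. Signs turned for members near 0, namely miR-301b-3p with upper-quartile factors (−0.063) and miR-454-5p with library totals (0.11), the totals of the normalized columns (0.20) and the GC trend removed (0.039), as for the non-member miR-130a-5p (0.21, 0.28 and 0.18, and 0.051 with the block added). With single libraries left out their ranges were −0.17 to 0.20 for miR-301b-3p, −0.90 to 0.019 for miR-454-5p, −0.61 to 0.24 for miR-130a-5p and −0.010 to 0.25 for miR-130b-5p. The cause was not tested. Leaving out each library for the chromosome 17 share was an alternative chosen after seeing the data, and kept its sign (−24.5 to −14.7 percentage points). With 3 libraries a group, the intervals of miR-130a-3p, miR-301b-3p and both 5p members cover changes of either sign.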

Other observations

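Over the 6 libraries, the pattern of miR-130b-3p was most like that of miR-130a-3p, its relative on another chromosome, with Pearson's r = 0.955 of log2 CPM, the highest among the 472 tested miRNAs whose mean CPM reached 10. MiR-92b-5p (0.954) and let-7g-3p (0.950) followed. MiR-301b-3p, its neighbor on chromosome 22, was at place 161 (0.359) and the other arm of its own hairpin, miR-130b-5p, at place 185 (0.208). The pattern of miR-454-3p was most like those of miR-106a-5p (0.992), miR-17-5p (0.979) and miR-135b-5p (0.975). MiR-301a-3p, from the same host gene, was at place 40 (0.895), and miR-454-5p at place 152 (0.495). These values describe 6 libraries that share groups, depth and scaling, and with so few libraries high values are common.

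The first 6 bases of the family's seed recur 1 base further on, at bases 3 to 8, in 7 other human miRNAs of RefSeq, among them miR-148a-3p, miR-148b-3p and miR-152-3p. MiR-148a-3p was at 17380, 27630 and 25630 CPM in the combined treatment, against 39990, 29100 and 36200 CPM in the monotreatment, far above the family itself. Its log2 fold change was −0.58 (adjusted p = 0.179 by edgeR). That of miR-148b-3p was −0.61 (adjusted p = 0.237) and that of miR-152-3p 0.22 (adjusted p = 0.558 by edgeR). With the totals of the normalized columns the values of miR-148a-3p and miR-148b-3p were −0.071 and −0.17. Of the 7, 5 were tested, the other two tested ones being miR-519a-3p, with a log2 fold change of −1.02 (adjusted p = 0.164 by edgeR), and miR-519b-3p, with −0.61 (adjusted p = 0.482 by edgeR), both named after their values were seen. EdgeR called 0 of the 5 (4.75% of all tested miRNAs) and 2 of them were at an unadjusted p under 0.05 (25.9% of all tested miRNAs), and DESeq2 and limma called 0 each.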
